A study of Homo sapiens with 346 samples.

Results

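The replication-dependent histone genes are the genes of clustered H1, H2A, H2B, H3 and H4 histones. They were taken as every gene whose symbol starts with HIST1H, HIST2H, HIST3H or HIST4H, which gave 68 of the 31463 genes listed in the gene expression tables of the series. Of the 28806 genes tabulated for HCT-116, 57 are members, of the 29551 for HepG2, 67 are, and 56 are in both. Single cells of HCT-116, a line from a human colorectal carcinoma, and of cells labelled HepG2, a line from a human liver cancer, were profiled by Smart-seq2, a full-length single-cell RNA-seq protocol, either live or after fixation. Fixed cells were taken from the same culture into 80% methanol and stored for 1 week at -80 °C, and the labels name no genetic change or other agent in any group. The tables hold 91 live and 92 fixed HCT-116 cells and 68 live and 83 fixed HepG2 cells, 334 in all. The HCT-116 experiment was done once, and HepG2 was done as a pair of replicates, to which neither labels nor columns assign the cells. Each combination of line and treatment is therefore 1 sample, and no test between them was possible. Errors below are SDs over cells.

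Library batch and treatment coincide in both lines and cannot be told apart. Median depth was 2.5 M (mega) reads in live HCT-116 cells and 1.8 M in fixed ones, and in HepG2 it was 2.4 and 2 M. None of 15 hepatocyte markers was above 1 TPM (transcript abundance per length, scaled to the same total in every cell) in 50% of the cells labelled HepG2, whereas 9 of 10 luminal breast markers were, so "HepG2" is used here as the label only. Of 10 intestinal markers, CDX2 alone passed in HCT-116, and 0 of 8 blood markers passed in either line. Among HepG2 columns, 1 live and 1 fixed hold identical values, and 6 fixed columns resemble another one with a Pearson correlation above 0.95. Values that moved without these columns are given with the result.

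Histones package newly copied DNA into nucleosomes, and cells make most of them during S phase. The core histones H2A, H2B, H3 and H4 form the nucleosome, and the linker histone H1 binds the DNA between nucleosomes. Most genes of this kind have no introns, and their mRNAs normally end just after a conserved stem-loop in place of a poly(A) tail. The stem-loop is bound by SLBP, which carries the RNA through processing, translation and its decay at the end of S phase. Some of these genes also make a longer, polyadenylated RNA when transcription passes the stem-loop. Smart-seq2 primes cDNA with oligo-dT, so the measured levels come from RNA that the primer could reach, and fewer molecules per cell cannot be told apart from molecules that were captured less well.

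The stem-loops are shown first, because the members were later compared by where their annotated transcripts end relative to them. A stem of 6 base pairs (G with T allowed) that starts with GG, ends with CC and is closed by a loop of any 4 bases was found 22 to 67 bases after the stop codon (median 35.5) in each of the 66 coding members, which all have a canonical transcript of 1 exon. The other 2 members are pseudogenes. Within 150 bases of the stop codon, 342 of 19853 other protein-coding genes (1.72%) held a match to the same pattern on the coding strand. Below, the 16 bases of the stem-loop are in capitals with 5 bases on each side, in the GRCh38 build and read 5′ to 3′ on the coding strand.
HIST1H4C: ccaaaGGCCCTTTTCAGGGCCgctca
HIST1H4K: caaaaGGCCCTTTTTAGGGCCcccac
HIST1H2AJ: acaaaGGCTCTTTTCAGAGCCacttc
HIST1H2AK: aaaaaGGTTCTTTTCAGAGCCaccta
HIST2H2AA3: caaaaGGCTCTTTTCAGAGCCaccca
HIST1H2BK: ccaaaGGCTCTTTTAAGAGCCactta
HIST1H3E: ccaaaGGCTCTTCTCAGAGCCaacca

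HIST1H4C, the member with the highest level in all 4 groups, has its stem-loop window at chr6:26104312-26104337 (plus strand), and that of HIST1H2BK, which had the next highest mean in any group, is at chr6:27146361-27146386 (minus strand). The windows of HIST1H4K at chr6:27831173-27831198, HIST1H2AJ at chr6:27814303-27814328 and HIST1H2AK at chr6:27837880-27837905 are on the minus strand. That of HIST2H2AA3 is at chr1:149842218-149842243 (minus strand) and that of HIST1H3E at chr6:26225591-26225616 (plus strand). All lie in the 3′ untranslated part of a single-exon gene. Only 9 different 16-base sequences occurred. The form seen in HIST1H2AJ and HIST2H2AA3 was shared by 38 members, none of them an H4 gene. The 14 H4 genes had a stem of their own, in the form of HIST1H4C in 10 members and of HIST1H4K in 4, and the form of HIST1H2BK occurred in 9 members. HIST1H2AK and HIST1H3E were among 5 members with a form found in no other.

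The annotation splits the coding members in another way. In 49 of them the annotated gene ends at the stem-loop, and in 17 (HIST1H2BK, HIST1H2AC, HIST1H2BD, HIST2H2BE, HIST2H4A and HIST1H3E among them) GENCODE or RefSeq carries the gene at least 100 bases past it. Of the 16 that GENCODE extends, 15 have AATAAA or ATTAAA, the signals for polyadenylation, in the last 40 bases of at least 1 extended transcript. In the canonical transcript, HIST2H2BE alone of those carried past the stem-loop has such a signal. There 1 of the 49 that end at the stem-loop and 76.6% of the other protein-coding genes have one. The 15 and these shares are therefore unlike measures. The division by annotated end was made after the values had been seen, and it describes the annotation, since these tables do not show where a measured RNA ended. Of the members, 51 lie on chromosome 6, 16 on chromosome 1 and 1 on chromosome 12. The 14 coding H4 members encode 2 distinct proteins and the 14 coding H3 members 3, whereas the 5 H1 members encode 5, the 16 H2A members 10 and the 17 H2B members 13.

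HIST1H4C, 1 of the many genes for histone H4, held more of the summed level than any other member in all 4 groups. Summed over members, live HCT-116 cells had 2275 ± 2479 TPM (SD, n = 91 cells), fixed HCT-116 cells 1092 ± 988 (n = 92), live HepG2 cells 2343 ± 1210 (n = 68) and fixed HepG2 cells 2232 ± 951 (n = 83). Of that sum HIST1H4C made up 81.1% (live) and 67.5% (fixed) in HCT-116, and 48.6% and 31.7% in HepG2. It was the sole member above 1 TPM in every cell of all 4 groups.

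HIST1H4C differed widely between live cells, and less so between fixed ones. In live HCT-116 cells it went from 8.91 TPM in the lowest cell over a median of 592 to 7934 in the highest. In fixed HCT-116 cells the lowest, median and highest cells had 98.6, 446 and 2811 TPM. The fixed cells therefore lay inside the range of the live ones at both ends. The same held in HepG2, where live cells had 13.2, 467 and 4125 TPM and fixed cells 110, 630 and 2401. The widest empty step between sorted live HCT-116 cells was from 1633 to 2977 TPM. Above that step were 27 of 91 cells (29.7%, exact 95% interval 20.5 to 40.2%). In live HepG2 cells the widest step of this kind, leaving out 10% of cells at each end, was from 1016 to 1454 TPM, with 23 of 68 cells above it. The widest step of the fixed cells was smaller, 1.14-fold in HCT-116 and 1.09-fold in HepG2, against 1.82-fold and 1.43-fold in live cells. Any set of cells has a widest step, and it grows with the spread, so these steps do not show separate sets of cells.

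Few fixed cells reached the high levels. Above 2000 TPM were 27 of 91 live HCT-116 cells, 6 of 92 fixed ones (6.52%, 2.43 to 13.7%), 20 of 68 live HepG2 cells (29.4%, 19 to 41.7%) and 1 of 83 fixed ones (1.2%, 0.0305 to 6.53%). Above 500 TPM the shares overlapped, at 58.2% of live and 42.4% of fixed cells in HCT-116 and 47.1% and 63.9% in HepG2. The intervals cover counting error only. The SD of log2(TPM + 1) of HIST1H4C was 2.07 over live cells of HCT-116 against 1.23 over its fixed cells, and 2.01 against 0.96 in HepG2. This narrowing was among the strongest of any abundant gene. Of 820 genes with a mean of at least 100 TPM in both treatments of HCT-116, 3 (HIST1H4C included) had as low a ratio of fixed to live SD as its 0.594, and the median gene had 1.17. Among 813 such genes in HepG2, HIST1H4C had the lowest ratio, 0.480, against a median of 0.925. Without the HepG2 columns in doubt its SDs were 2.02 and 0.98. HIST1H4C was singled out for this comparison after its values had been seen.

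**Figure D1:**
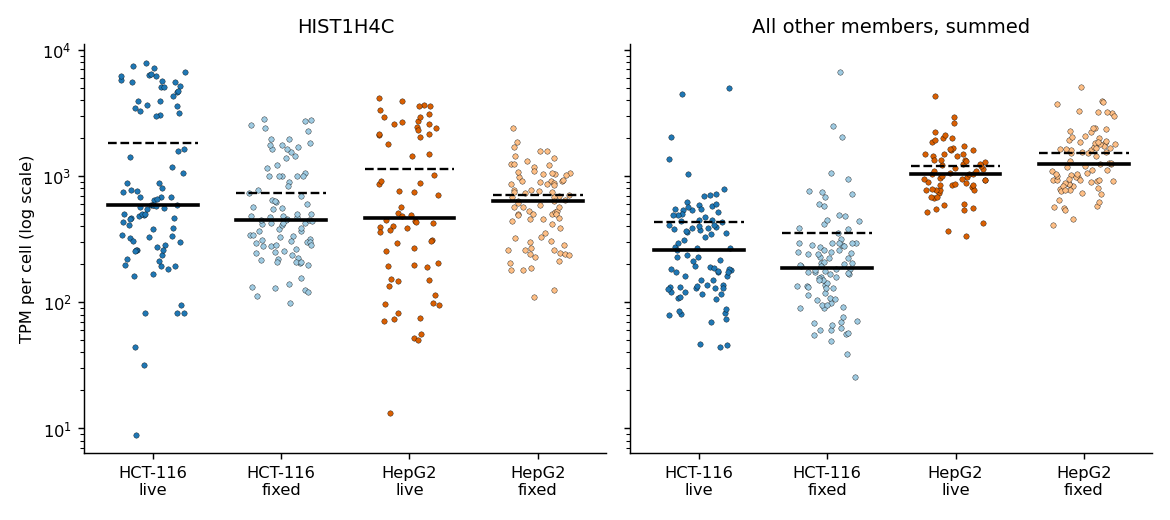
TPM per cell (log axis) of HIST1H4C and of all other members summed, in live and fixed cells of HCT-116 and HepG2. Points are cells, solid lines medians and dashed lines means. HIST1H4C spans 8.91 to 7934 TPM in live and 98.6 to 2811 TPM in fixed HCT-116 cells, and the widest empty step of the live cells, away from both ends, lies between 1633 and 2977 TPM.

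The other members together had a lower mean than HIST1H4C in HCT-116, where HIST1H4C had 1845 TPM in live and 737 in fixed cells. In live HepG2 cells their mean was near the 1139 TPM of HIST1H4C, but their median was higher (1040 against 467 TPM). In fixed HepG2 cells their mean was above its 708 TPM. The other members summed to 430 ± 715 TPM in live cells of HCT-116 and 355 ± 755 in its fixed cells, and to 1203 ± 649 and 1524 ± 906 in HepG2. Single cells weigh heavily in the HCT-116 means: 1 live cell had 5002 TPM of other members and 1 fixed cell 6660. By role, the linker H1 genes held 3.71% of the summed level in live HCT-116 cells and 2.99% in live HepG2 cells. The H2A genes held 7.06% and 20.1%, the H2B genes 5.69% and 16.7%, and the H3 genes 1.14% and 4.62%. The levels of the H3 and H4 members were thus very unequal in these libraries, although H3 and H4 proteins occur in equal numbers in the nucleosome. Transcripts of the variant H3 genes H3F3A and H3F3B, given further below, are not part of these shares.

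Among H1 genes, HIST1H1C was above 1 TPM in 87.9% of live and 77.2% of fixed cells in HCT-116, and in 97.1% and 90.4% in HepG2. In HCT-116 its mean was 73.2 ± 226 TPM before and 52.7 ± 187.8 after fixation, with a highest cell of 1925 and 1670 TPM, and 42.2 ± 26.1 and 45.5 ± 43.9 in HepG2. Among H2A genes, HIST2H2AA3 was found in all HepG2 cells, at 110.97 ± 94.1 TPM in live and 153.6 ± 124.6 in fixed cells, and at 19.4 ± 52.7 and 29.5 ± 152.4 in HCT-116. HIST1H2AC had 53.5 ± 56.9 and 93.9 ± 109 TPM in live and fixed HepG2 cells, and 24.2 ± 68.9 and 21.9 ± 45.4 in HCT-116. In both H2A genes the SD over HCT-116 cells exceeded the mean.

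Among H2B genes HIST1H2BK led in all groups, with 72.2 ± 221 TPM (live) and 55.9 ± 107.3 TPM (fixed) in HCT-116 and 174.8 ± 112.5 and 247 ± 153.2 TPM in HepG2 cells. It was above 1 TPM in 94.5% of live and 87% of fixed cells in HCT-116, and in every HepG2 cell. HIST1H2BD had 45.7 ± 50.4 and 62.7 ± 55.1 TPM in HepG2 and 19.4 ± 55.7 and 18.5 ± 43.8 in HCT-116. HIST2H2BE was at 33.3 ± 30.9 and 50.9 ± 57.7 TPM in HepG2 and 2.21 ± 11 and 1.15 ± 6.51 in HCT-116. Of the H4 genes apart from HIST1H4C, HIST2H4A had 47.9 ± 47.1 and 63.1 ± 60.5 TPM in HepG2 and 4.20 ± 8.80 and 7.33 ± 17.3 in HCT-116, and HIST1H4K 34.3 ± 28.3 and 51.9 ± 49 in HepG2 and 12.7 ± 19.4 and 12.6 ± 24.2 in HCT-116. No H3 gene was among the 12 members with the highest mean. HIST1H3H, an H3 gene, had 21.9 ± 30.3 and 43.3 ± 57.5 TPM in live and fixed HepG2 cells and 5.48 ± 11.9 and 5.02 ± 12.1 in HCT-116.

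Transcripts behind a gene were listed in the plural for 3 members. HIST1H2BK came almost wholly from 1 RefSeq transcript, NM_080593.2, at 100.8 and 142.99 CPM (reads scaled to the same total in every cell, not divided by length) in live and fixed HepG2 cells, against 0.24 and 0.50 CPM for NM_001312653.1. HIST1H2BD came mainly from NM_138720.2, at 19.1 and 27.9 CPM, against 2.45 and 2.69 for NM_021063.3. HIST2H2BF had 1.27 and 0.97 CPM of NM_001024599.4 and 0.38 and 0.63 of NM_001161334.1 in HepG2. Its gene level was 5.55 ± 9.40 and 4.72 ± 10.0 TPM there, and 1.32 ± 3.55 and 0.65 ± 2.86 TPM in HCT-116.

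Some values are shared between near-identical copies, because reads that fit several genes were divided among them. HIST2H2AA3 and HIST2H2AA4, HIST2H3A and HIST2H3C, and HIST2H4A and HIST2H4B had identical values in all 334 cells, so each pair is 1 measurement. HIST2H2AA3, HIST2H3A and HIST2H4A are named for both copies, but counts of members are over listed genes and hold both copies unless they are said to count a pair once. HIST1H4J was above 0 in 77.9% of live HepG2 cells, yet it reached 1 TPM in no cell of either line. The level of a single gene within such a pair or of HIST1H4J is uncertain.

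The first question was whether fixed cells differed from live ones in these genes. Fixed HCT-116 cells had the lower mean of the summed level (log2 ratio -1.06), but the medians of 827 and 745 TPM were close (log2 ratio of medians -0.15). The mean was set by the cells rich in HIST1H4C, whose log2 ratio of means was -1.32. Without HIST1H4C the log2 ratio of the summed level was -0.27 in HCT-116. In HepG2 it was -0.07 for all members, -0.69 for HIST1H4C and 0.34 for the others. When 38 live and 38 fixed HepG2 cells of equal depth were compared, HIST1H4C had 761 and 779 TPM and a log2 ratio of 0.03, and the same step in 53 and 53 HCT-116 cells gave 1799 and 755 TPM. In HCT-116 the differences in mean TPM of the summed level and of HIST1H4C were smaller than the SD over live cells but larger than that over fixed cells (688 TPM for HIST1H4C). In HepG2 they were smaller than both.

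18S ribosomal RNA took 255152 TPM on average in live cells of HCT-116, 76548 in its fixed cells, and 55075 and 22615 in HepG2. TPM are shares of a total, so the results were also read with ribosomal RNA left out. The summed level then had a log2 ratio of -1.37 in HCT-116, and HIST1H4C one of -0.84 in HepG2. All genes tested had a median log2 ratio of 0.16 (HCT-116) and 0.14 (HepG2). Leaving ribosomal RNA out moved that median by -0.32 and -0.18.

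Fewer members were found per fixed cell in HCT-116, and fewer genes of any kind in both lines. Genes with a TPM above 0 per cell were 12029 ± 919 before and 10506 ± 1337 after fixation in HCT-116. In HepG2 they were 13858 ± 1142 and 12118 ± 1691. On average 16.8 ± 7.0 members had a TPM above 0 in live cells of HCT-116 and 11.5 ± 6.18 in its fixed cells, and 33.5 ± 7.78 and 31.3 ± 8.14 in HepG2. With each cell thinned to 500000 reads and histone transcripts counted in place of genes (16.8 and 11.7 unthinned in HCT-116, 31 and 29.1 in HepG2), the means were 11.9 and 9.18 in HCT-116, where 3 fixed cells were too shallow, and 24 and 24.1 in HepG2. The difference of HepG2 was thus not seen at equal depth. Above 1 TPM in at least 10% of cells were 36 members before and 29 after fixation in HCT-116, and 56 and 53 in HepG2. Among genes that are no member, 14064 and 13189 reached that share in HCT-116, and 15534 and 14295 in HepG2.

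Member by member, genes with a mean of at least 1 TPM over both treatments were called when the means differed at least 2-fold, with 0.1 TPM added to each mean. In HCT-116, 37 members passed this filter and 9 of them (24.3%) were lower in fixed cells, against 8.41 percent of all genes tested, and 1 was higher, against 2.57 percent. In HepG2, 56 members passed, 5 (8.93%) were lower against 9.13 percent of all genes, and 2 (3.57%) were higher against 4.50 percent. With each identical pair counted once the calls were the same, out of 34 members in HCT-116 and 53 in HepG2. The HepG2 counts were close to the background at this setting, but they depended on it. In cells paired on total reads 13 of 55 members were lower in HepG2, against 10.8 percent of all genes, and with means of log2(TPM + 1) 1 was, against 5.64 percent. In HCT-116 the lower count was 14 of 34 in paired cells, against 9.03 percent, and 4 of 37 with means of log2(TPM + 1), against 6.48 percent. The median member had a log2 ratio of -0.32 in HCT-116 and -0.09 in HepG2.

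The 9 members lower in fixed HCT-116 cells all belong to those annotated to end at the stem-loop. They include 5 H2A genes (HIST1H2AJ, HIST1H2AH, HIST1H2AK, HIST2H2AC and HIST1H2AI), the H2B gene HIST1H2BF, the H3 gene HIST1H3B, the linker HIST1H1E and HIST1H4C. HIST1H2AJ had 25.8 ± 39.6 TPM in live and 6.70 ± 14.5 in fixed cells (log2 ratio -1.93), and was above 1 TPM in 51.6% (40.9 to 62.3%) and 27.2% (18.4 to 37.4%) of them. HIST1H2AH had 7.95 ± 14 and 2.32 ± 7.63 TPM (-1.73), and HIST1H2BF 2.41 ± 6.06 and 0.71 ± 3.01 (-1.63). HIST1H2AH and HIST1H2BF were low and rested on a minority of cells: HIST1H2AH was above 1 TPM in 32 live and 15 fixed cells and HIST1H2BF in 21 and 7. The single member that was higher, HIST1H4D, had 1.24 ± 5.22 TPM over all live and 4.20 ± 17.1 over all fixed cells (1.68), although 7 live and 6 fixed cells were above 1 TPM. Of the 9 lower calls 8 remained when the highest cell of either group was left out, and HIST1H2AI was then at -0.99. The highest cell also decided the sign of HIST2H2AA3, whose log2 ratio of 0.60 turned negative without 1 fixed cell of 1412 TPM.

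Of the 24 members in HCT-116 that end at the stem-loop and passed the filter, 9 were lower, 1 was higher and the median log2 ratio was -0.46 (-0.48 over 22 members with each identical pair counted once). Of the 12 annotated past it, 0 were called and the median was -0.13 (-0.14 over 11). In HepG2 the medians were -0.17 over 38 members and 0.39 over 17. In both lines the members annotated past the stem-loop had the higher median ratio, but the ranges overlapped, and the difference was not tested. Summed by class, the members annotated past the stem-loop had 185.8 TPM (live) and 163.9 TPM (fixed) in HCT-116 and 560 and 783 TPM in HepG2. The other class without HIST1H4C had 230 and 181 TPM in HCT-116 and 619 and 716 TPM in HepG2.

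In HepG2 the calls were HIST4H4 (2.17 ± 5.40 TPM in live and 0.71 ± 3.45 in fixed cells, log2 ratio -1.49), HIST1H4I (2.33 ± 8.19 and 0.77 ± 3.22, -1.48), HIST1H2AD (11.7 ± 18.8 and 4.42 ± 9.55, -1.38), HIST2H3D and HIST1H1E on the lower side. HIST1H4E (3.80 ± 10.8 and 9.54 ± 25.2, 1.31) and HIST1H4H (16.6 ± 40.2 and 34.6 ± 74.1, 1.05) were on the higher side. Only HIST1H2AD and HIST4H4 stayed past 2-fold without the highest cell of either group. HIST1H2AD was above 1 TPM in 66.2% (53.7 to 77.2%) of live and 38.6% (28.1 to 49.9%) of fixed HepG2 cells. HIST1H1E, a linker histone gene, was the 1 member called in both lines: 11.2 ± 17.4 and 4.74 ± 9.71 TPM in HCT-116 (-1.22) and 3.28 ± 4.46 and 1.49 ± 2.97 in HepG2 (-1.08). It was above 1 TPM in 58.2% of live and 29.3% of fixed cells in HCT-116, and in 57.4% and 30.1% in HepG2. Of 36 members that passed the filter in both lines, 15 had a ratio below 0 in both, 8 above 0 in both and 13 opposite signs. How all genes divide in this way was not counted, so these counts and the 1 shared call have no background to be set against.

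**Figure D2:**
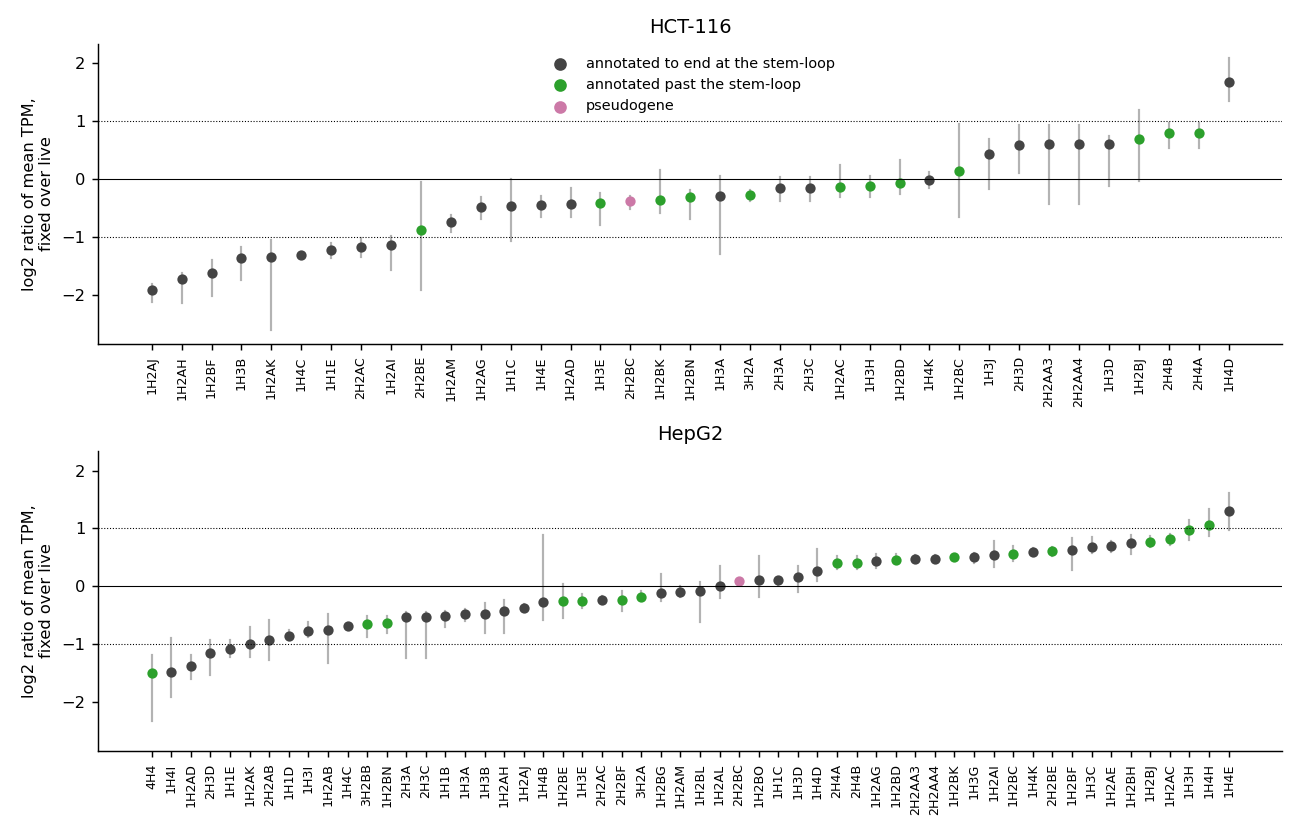
Log2 ratio of mean TPM, fixed over live, of each member that passed the filter, in HCT-116 (37 members) and HepG2 (56). Colours give the annotated end, dotted lines mark 2-fold, and grey bars give the value without the highest cell of 1 group or of the other. The 9 members past 2-fold on the lower side in HCT-116 are of the class that ends at the stem-loop.

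The next question was how the histone genes followed S phase, read from PCNA, the sliding clamp of the replication polymerases, and MCM2, a subunit of the replicative helicase. PCNA was at 170.3 ± 104.8 TPM before and 204.8 ± 134.8 after fixation in HCT-116 and at 97.9 ± 84.2 and 130.4 ± 102.3 in HepG2. MCM2 was at 59.9 ± 39.6 and 32.8 ± 28.6 TPM in HCT-116 and 49.8 ± 37.9 and 20.8 ± 17.9 in HepG2. The 2 genes thus differed in direction between treatments (log2 ratios 0.27 and 0.41 for PCNA, -0.87 and -1.26 for MCM2). Correlations below are over the cells of 1 line and treatment, describe these cells and carry no p. In HepG2 the cells come from a pair of replicates that could not be separated, so a difference between the replicates and a relation over cells cannot be told apart. The listed TPM of a cell also varied in total, from 756507 to 954258 in live HepG2 cells, because the table does not hold every transcript.

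Over cells, log2 of the summed level and of PCNA had a Pearson correlation of 0.45 in live (n = 91) and 0.21 in fixed (n = 92) HCT-116 cells, and 0.27 in live (n = 68) and -0.14 in fixed (n = 83) HepG2 cells. The last value was 0.15 in cells paired on total reads. With MCM2 the values were 0.32, 0.11, 0.29 and 0.05. The sum mixes members that behaved in opposite ways. HIST1H4C alone had 0.52, 0.28, 0.53 and 0.42 with PCNA and 0.64, 0.35, 0.52 and 0.28 with MCM2. The other members summed had 0.21, -0.10, -0.44 and -0.37 with PCNA and -0.21, -0.30, -0.31 and -0.06 with MCM2. HIST1H4C was related in all 4 groups to the mean of the Seurat S-phase genes, at 0.74, 0.49, 0.64 and 0.49, and less so to the Seurat G2/M genes, at 0.51, 0.44, 0.42 and 0.27. Given the number of genes found and the reads of each cell, its correlation with PCNA was 0.53, 0.30, 0.52 and 0.39.

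**Figure D3:**
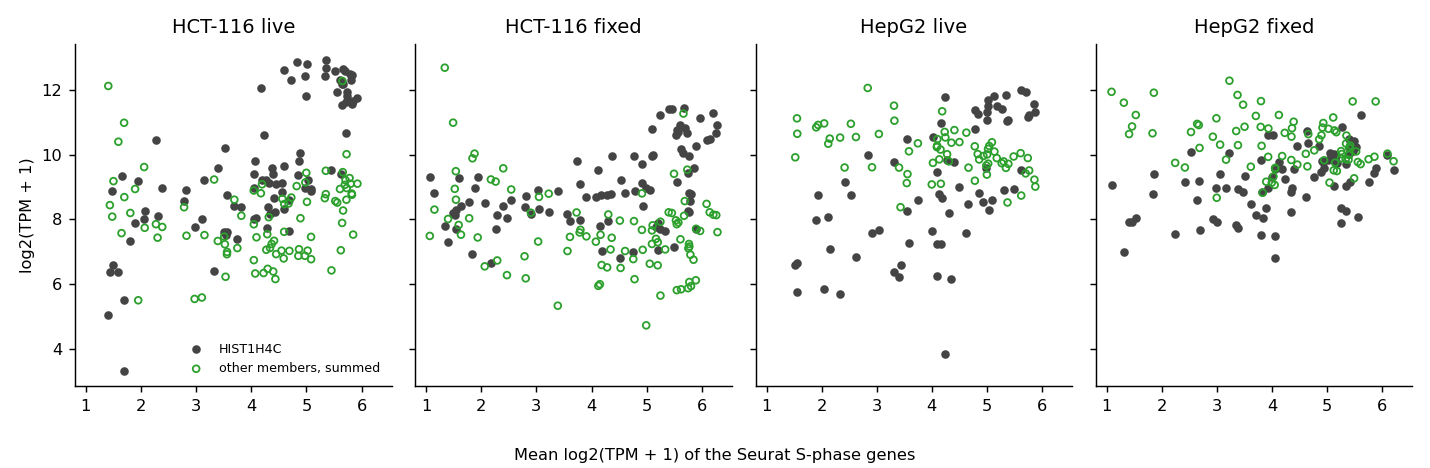
Levels of HIST1H4C and of the other members summed, as log2(TPM + 1), against the mean log2(TPM + 1) of the Seurat S-phase genes, 1 point per cell and measure, for the 4 groups. HIST1H4C is higher in cells with higher S-phase genes (Pearson correlation 0.74 before and 0.49 after fixation in HCT-116).

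Single members were then read by their annotated end. In live HCT-116 cells, 22 of 22 members that end at the stem-loop and were above 1 TPM in at least 10% of cells had a Spearman correlation with PCNA above 0 (median 0.28), against 6 of 13 annotated past it (median -0.07). In fixed HCT-116 cells the counts were 16 of 17 (median 0.21) and 3 of 11 (-0.14). Over all genes the median was 0.06 and 0.08, with 64.7% and 69.1% of genes above 0. In HepG2 the class that ends at the stem-loop was split, with 12 of 38 above 0 in live (median -0.10) and 20 of 36 in fixed cells (0.03). The class annotated past it had 0 of 17 (-0.38) and 4 of 16 (-0.10). The all-gene medians there were 0.02 and 0.05, with 54.7% and 62.3% of genes above 0. In each group the class annotated past the stem-loop had the lower median. With each identical pair counted once, live HCT-116 cells had 20 of 20 and 6 of 12 members above 0, fixed ones 14 of 15 and 3 of 10, live HepG2 cells 12 of 36 and 0 of 16, and fixed ones 20 of 34 and 3 of 15.

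With MCM2 the class that ends at the stem-loop was above 0 in 21 of 22 members in live HCT-116 cells (median 0.27), against 58.1% of all genes. In fixed HCT-116 cells it was 11 of 17 (median 0.0995), which is no larger a share than the 68.5% of all genes, whose median was 0.075. In HepG2 it was 15 of 38 in live cells (-0.078), a smaller share than the 65.6% of all genes, whose median was 0.063. In fixed HepG2 cells it was 24 of 36 (0.039), against 57.6% of all genes and a median of 0.027. The class annotated past the stem-loop had 1 of 13 (-0.15), 2 of 11 (-0.26), 1 of 17 (-0.29) and 4 of 16 (-0.077) above 0, again the lower median in each group.

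Among members that ran with HIST1H4C were the H2A genes HIST1H2AJ and HIST1H2AH and the linker HIST1H1E. HIST1H2AJ had a Spearman correlation with HIST1H4C of 0.75 before and 0.49 after fixation in HCT-116 and of 0.84 and 0.54 in HepG2. HIST1H1E had 0.68, 0.53, 0.70 and 0.40, and HIST1H2AH 0.66, 0.21, 0.62 and 0.35. Their correlations with PCNA were 0.53, 0.44, 0.59 and 0.16 for HIST1H2AJ and 0.49, 0.39, 0.42 and 0.36 for HIST1H1E. In HepG2, where they were listed, the linker gene HIST1H1D had 0.81 and 0.54 with HIST1H4C and the H3 gene HIST1H3I 0.78 and 0.47. These are the members that most resembled HIST1H4C in HepG2, and they are annotated to end at the stem-loop. They were picked for these values, and their class as a whole did not share them in HepG2. Of the other members of that class, 21 of 37 in live and 23 of 35 in fixed HepG2 cells had a correlation with HIST1H4C above 0. The class medians there were near those of all genes. In HCT-116 the counts were 21 of 21 and 14 of 16, against 58.1% and 51.9% of all genes.

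HIST1H2BK, HIST1H2AC and HIST1H2BD formed another set. The correlation of HIST1H2BK with PCNA was -0.21 before and -0.32 after fixation in HCT-116 and -0.43 and -0.29 in HepG2, and with HIST1H4C it was -0.46, -0.39, -0.60 and -0.26. HIST1H2AC had 0.49, 0.53, 0.74 and 0.75 with HIST1H2BK, and HIST1H2BD had 0.49, 0.50, 0.71 and 0.64. HIST2H2BE had 0.69 and 0.66 with HIST1H2BK in HepG2. All 12, 10 and 16 other members annotated past the stem-loop in live HCT-116, fixed HCT-116 and live HepG2 cells had a correlation with HIST1H2BK above 0, and 14 of 15 in fixed HepG2 cells. Among all genes 41.2%, 42.4%, 51.3% and 54.3% were above 0. In the class that ends at the stem-loop 6 of 22 and 9 of 17 members were above 0 in HCT-116, but 27 of 38 and 29 of 36 in HepG2, so most members of both classes were above 0 there. Not every member followed its class. HIST2H2AA3, annotated to end at the stem-loop, had 0.61 and 0.61 with HIST1H2BK in HepG2 and -0.45 and -0.23 with PCNA, and HIST1H2AI, of the same class, had -0.48 and -0.21 with PCNA there.

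**Figure D4:**
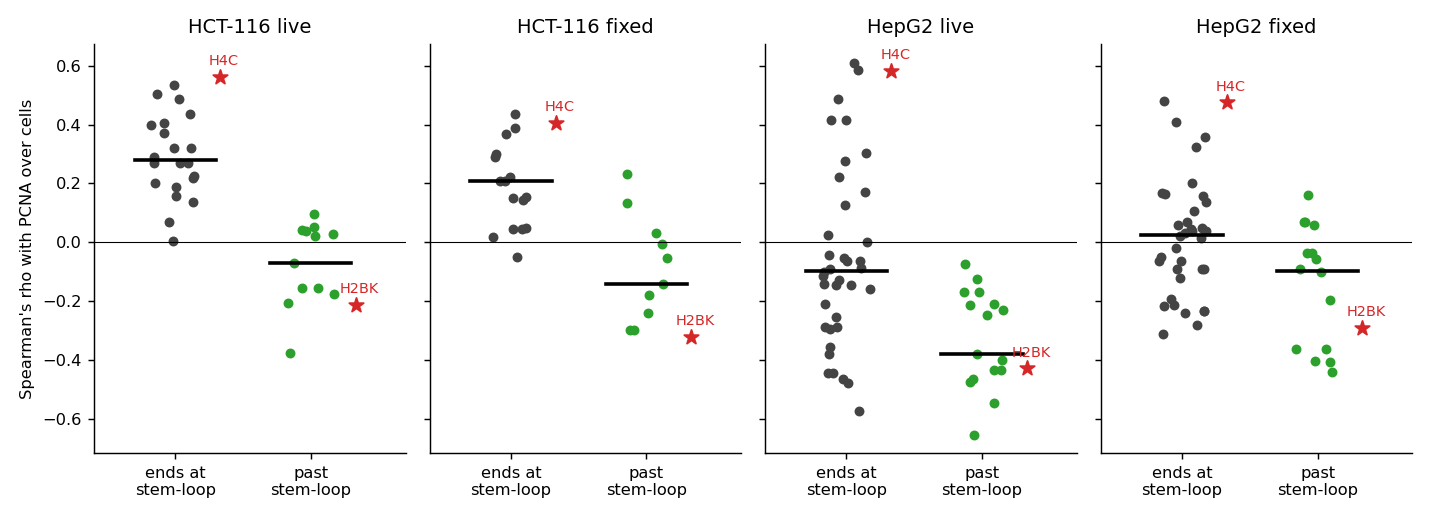
Spearman correlation over cells of each member with PCNA, by annotated end, in the 4 groups, for members above 1 TPM in at least 10% of cells. Points are members, lines medians over the class, and stars HIST1H4C and HIST1H2BK. The medians are 0.28 and -0.07 in live HCT-116 cells and -0.10 and -0.38 in live HepG2 cells.

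Of 8939 genes that are no member and were found in at least 50% of the cells of each group, those whose pattern was most like the summed level were CDCA4, FBXO5, ATAD2, PKMYT1 and CENPQ. FBXO5 is an inhibitor of the anaphase-promoting complex, and CENPQ is a kinetochore protein. The Spearman correlation of CDCA4 with the summed level was 0.64, 0.38, 0.40 and 0.01 in the groups in the order used above, with a mean of 0.36. PCNA ranked 57 with a mean of 0.24, MCM2 140, SLBP 385 and NPAT, the activator of histone gene transcription, 1518.

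The lines were compared next, although line, table and experiment coincide. HepG2 and HCT-116 had about the same summed level in live cells (log2 ratio 0.04), and in fixed cells HepG2 was higher (1.03). Without HIST1H4C, HepG2 was higher in both (1.49 in live and 2.10 in fixed cells). Among 48 members that passed the filter in live cells, 34 were at least 2-fold higher in HepG2 and 2 lower, against 21.3 and 18.1 percent of all genes (32 and 2 of 45 with each identical pair counted once). In fixed cells 32 of 46 were higher and 2 lower, against 21.2 and 17.3 percent (30 and 2 of 43). The linker HIST1H1E was lower in HepG2 in both (-1.74 and -1.60). HIST1H4C itself differed by -0.70 and -0.06, which is within its SD over cells.

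Some members of chromosome 6 were found in HepG2 cells and hardly at all in HCT-116 cells. Of the 51 members on this chromosome, 42 were above 1 TPM in at least 10% of the cells of a line, and 23 of these were so in both lines. Members not listed for a line were counted as 0 in its cells. A further 11 reached that share in HepG2 but exceeded 1 TPM in at most 2 HCT-116 cells, and 0 did so the other way round. They were HIST1H3C, HIST1H2BE, HIST1H2BG, HIST1H2AE, HIST1H1D, HIST1H2BH, HIST1H3G, HIST1H4I, HIST1H2AL, HIST1H1B and HIST1H3I. How many of all genes met the same rule was not counted, so these 11 have no background to be set against. HIST1H3G was above 1 TPM in 79.5% of HepG2 cells (72.1 to 85.6%), at 22.7 ± 23 TPM in live and 32.3 ± 39.6 in fixed cells. HIST1H1D was so in 65.6% of cells, at 22.1 ± 28.3 and 12.2 ± 16.1 TPM, and HIST1H3I in 56.3%, at 16.2 ± 23.5 and 9.45 ± 14.3. None of these 3 is listed for HCT-116, so their 0 there was filled in and not measured, and why they are not listed is not known. A measured count of 0 would allow a share of up to 1.64% of cells above 1 TPM (3 cells of all). Such a limit is on cells with reads and not on cells that express the gene.

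Most of them were neighbours. In the stretch from HIST1H2BG to HIST1H4H (chr6:26216200-26285638, GRCh38, 11 members), 7 are not listed in HCT-116. Of these 7, HIST1H4F, HIST1H4G, HIST1H3F and HIST1H2BI were rare in HepG2 too, each above 1 TPM in at most 10 cells. Their absence from HCT-116 is therefore hardly a difference between the lines. The bounds of the stretches and the omission of HIST1H3E were chosen with the values known, so the sums below describe that choice. Leaving out HIST1H3E, the remaining members of the stretch summed to a mean of 121.9 TPM in live cells and 157.3 TPM in fixed cells of HepG2, and were above 1 TPM together in 66 of 68 and 83 of 83 cells. In HCT-116 those that are listed summed to 0.59 and 0.04 TPM, in 4 of 91 and 2 of 92 cells. HIST1H3E, within the stretch and annotated past its stem-loop, was above 1 TPM in 18.7% of live and 14.1% of fixed cells of HCT-116, at 3.97 ± 10.2 and 2.94 ± 9.82 TPM. A second stretch, from HIST1H2AL to HIST1H3I (chr6:27865317-27872346, 3 members), had 22.6 and 15 TPM in HepG2, in 52 of 68 and 58 of 83 cells. In HCT-116, where 2 of the 3 are not listed, it had 0.02 and 0.06 TPM, in 1 cell of each group. The next members on either side, HIST1H4E and HIST1H2BJ for the first stretch and HIST1H2BN and HIST1H3J for the second, were found in cells of both lines.

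**Figure D5:**
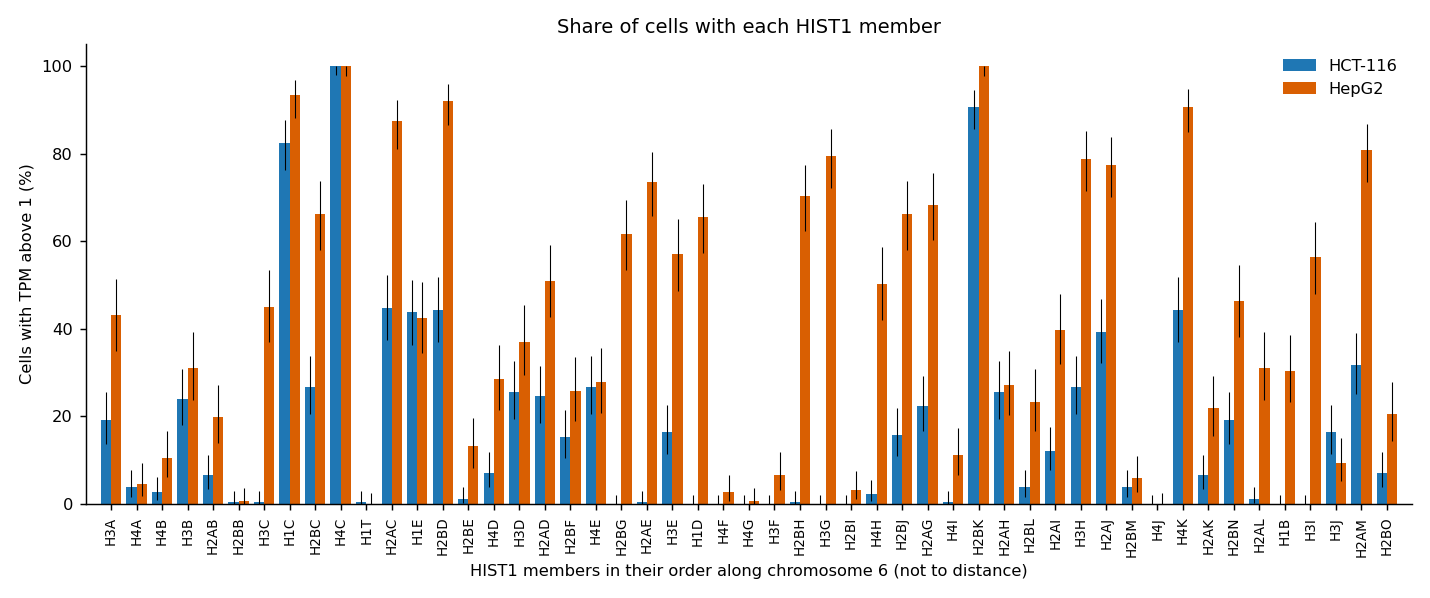
Share of cells above 1 TPM of each member on chromosome 6 in HCT-116 and HepG2, live and fixed cells together, in order along the chromosome. Bars are shares in percent and thin lines exact 95% intervals, and a member missing from a table is drawn at 0. HIST1H3G is at 79.5% in HepG2 and is drawn at 0 in HCT-116, where it is not listed.

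Genes that process histone RNA, carry histones or mark the cell cycle were read the same way. Over all genes tested, 2.57 percent were called higher and 8.41 percent lower in fixed HCT-116 cells, and 4.50 and 9.13 percent in HepG2. With so few calls per list, the counts below were not read as results about the lists. Of 17 histone RNA processing factors 16 passed the filter in each line. UPF1, a helicase that takes part in histone RNA decay, was higher in fixed cells of both lines (0.85 ± 1.2 and 2.45 ± 2.33 TPM in HCT-116, 1.62 ± 1.31 and 3.34 ± 2.53 in HepG2), and CPSF1, a cleavage factor subunit, was lower in HCT-116 (25.7 ± 12.5 and 10.0 ± 8.22). SLBP was at 66.3 ± 42.8 TPM before and 78 ± 52 after fixation in HCT-116 and at 33.4 ± 21.4 and 37.7 ± 26.5 in HepG2, and NPAT at 3.14 ± 2.81 and 4.75 ± 4.56 and at 3.49 ± 3.70 and 3.5 ± 3.6. Of 18 histone chaperones 18 passed, with HIRA higher (1.5) and CABIN1 lower (-1.06) in fixed HCT-116 cells and 0 called in HepG2. Of 44 S-phase genes 43 passed in each line, with UHRF1 lower in both and MCM2 lower in HepG2, and 54 of 56 G2/M genes passed, with TACC3 and RANGAP1 lower in both lines. The median log2 ratio was 0.35 and 0.19 over the S-phase genes and 0.10 and 0.05 over the G2/M genes in HCT-116 and HepG2, against 0.16 and 0.14 over all genes tested.

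The variant histones, most of which are replication-independent and carry poly(A) tails, gave a comparison within the histones. Of 12 such genes 11 passed in each line, and H2AFX, whose RNA is known in a stem-loop and in a polyadenylated form, was the 1 called. It was lower in fixed HCT-116 cells (53.4 ± 52.3 and 21.5 ± 21.9 TPM, log2 ratio -1.31), as were 8.41 percent of all genes tested. In HepG2 H2AFX was not called (51.8 ± 38.2 and 48.9 ± 34.8, -0.08). H2AFZ, the variant H2A.Z, was at 1459 ± 641 and 1688 ± 796 TPM in HCT-116 and 1382 ± 666 and 1838 ± 832 in HepG2. H3F3A and H3F3B, which encode H3.3, were at 548 ± 135.1 and 720 ± 204 and at 492 ± 166.6 and 573 ± 229 TPM in HCT-116, and at 591 ± 160.6 and 768 ± 207 and at 651 ± 330 and 749 ± 284 in HepG2. Among replication-dependent members only HIST1H4C had means of that size. H1F0, the replacement linker, was at 125.9 ± 142.4 and 83.9 ± 69.8 TPM in HCT-116 and 47.7 ± 50.6 and 26.6 ± 22.9 in HepG2. The remaining variants H2AFV, H2AFY, H2AFY2, H2AFJ, H1FX and CENPA had log2 ratios between -0.35 and 0.52, and H3F3C was below the filter.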

How the data were processed

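The authors aligned and quantified Smart-seq2 reads of single cells with kallisto 0.46.0 on GRCh38 (FastQC for quality), summed transcripts to genes with tximport, kept cells with more than 4000 genes and deposited gene-level TPM. The deposited transcript tables hold CPM, not divided by length, and the step between their values gave each cell's total reads, to 0.1 M (mega). Depth was 0.7 to 5.3 and 0.2 to 4.9 M reads in live and fixed HCT-116 cells, and 1.5 to 3.7 and 1.0 to 2.8 in HepG2. Of the labelled cells, 12 have no column and were not used. No column names a single labelled cell, so cells carry only their line and treatment.

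Group means and log2 ratios (0.1 TPM added to each mean, genes of at least 1 TPM, 2-fold), exact Clopper-Pearson intervals, and Pearson and Spearman correlations of log2(TPM + 1) were computed in Python 3.11.15 (numpy 2.4.6, pandas 2.3.3, scipy 1.17.1, matplotlib 3.10.9), checked on simulated data. Each group is 1 sample, so no test was run. Named are the 12 members with the highest mean, the 3 largest increases and decreases in each line, members with several transcripts, PCNA, MCM2, SLBP, NPAT, the variant histones and the 5 genes most like the summed level. Members outside this rule (members on chromosome 6 that differ between lines, the remaining 2-fold calls, members set beside HIST1H4C or HIST1H2BK) were named after their values were seen. The members and lists were chosen with earlier results of these data known. Stem-loops were searched in GRCh38 by script, with gene ends from GENCODE and RefSeq. Alternatives covered pseudocount, filter, scaling, ribosomal RNA, depth, detection limit and doubtful columns.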

Additional observations from a re-analysis of the deposited data

How the results depend on the processing

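A value counted as reversed only where it changed sign and was at least 2-fold or, for a correlation, at least 0.2 in size, and a smaller one that changed sign as moved or left. Of the alternatives for the values that answer a comparison, 30 moved the value, 0 reversed it and the others left it within its limits, and of 524 for other values 491 left it, 30 moved it and 3 reversed it. The limit was the SD over cells for levels and their ratios and 0.1 for correlations. That SD is wide, so a level left within it can still have changed much. The summed level in HCT-116 counted as left even where medians replaced means. Of the alternatives for the counts of members past 2-fold, 18 moved the count and 22 left it. The count of members lower in fixed HCT-116 cells went from 9 to 16 with no filter, 4 with means of log2(TPM + 1) and 14 in cells paired on reads, and the count higher from 1 to 2 with no filter and 0 with means of log2(TPM + 1). The lower count in HepG2 went from 5 to 1 with a pseudocount of 1 TPM or with means of log2(TPM + 1), to 13 in paired cells and to 8 with no filter, each cell rescaled by the median ratio, ribosomal RNA left out, the highest cell of each gene left out, or relative to the median of all genes. The higher count went from 2 to 5 with no filter, and to 1 with the median ratio, without ribosomal RNA, in paired cells and relative to that median. For the summed level, in live HCT-116 cells the G2/M genes gave 0.30 in place of the 0.45 of PCNA, and for MCM2 (0.32) Spearman's coefficient gave 0.45 and the S genes 0.53. In fixed HCT-116 cells the median ratio gave 0.11 for PCNA and 0.0017 for MCM2. In live HepG2 cells paired cells gave 0.080 for PCNA and 0.18 for MCM2, and the median ratio 0.19 for MCM2. In fixed HepG2 cells paired cells gave 0.15 for PCNA (-0.14, so the sign changed) and 0.18 for MCM2 (0.05), and the S and G2/M genes gave -0.073 and -0.18 in place of MCM2, also with the other sign. For the members without HIST1H4C in live HCT-116 cells, the value for PCNA turned to -0.085 with the G2/M genes, and that for MCM2 to 0.073 with Spearman's coefficient and 0.034 with the S genes. The causes were not tested. The leave-out of the highest cells, the centring on the median of all genes, the count of each identical pair once and all alternatives for HIST1H4C apart from the rest were chosen after seeing the data. No paired analysis was possible because the numbers in the labels only name cells, the columns do not carry them and no test was run. Depth limits members at a few reads per cell, for which a TPM of 0 does not show absence.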
